A study of Mus musculus with 14 samples.

Results

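The miR-17-92 and miR-106b-25 clusters were followed through demyelination and remyelination of the mouse corpus callosum. The members were the 9 leading-strand miRNAs of both clusters, taken by name from the array's own annotation, of 566 mouse miRNAs on the array. They were mmu-miR-17, mmu-miR-18a, mmu-miR-19a, mmu-miR-19b, mmu-miR-20a and mmu-miR-92a of miR-17-92, and mmu-miR-106b, mmu-miR-93 and mmu-miR-25 of miR-106b-25. The passenger strands, named with a star on the array, were not members.

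The samples were punches of corpus callosum of male mice, each hybridized to 1 single-colour Agilent miRNA array from 100 ng of total RNA. The 4 control arrays came from mice on a normal diet, the 4 arrays of 4wd from mice given cuprizone in the chow for 4 weeks, the 4 arrays of 2dr from mice returned to regular diet for 2 days after those 4 weeks, and the 2 arrays of 2wr from mice returned to it for 2 weeks. Cuprizone, a copper chelator toxic to oligodendrocytes, made up 0.2 to 0.4% of the chow and was given to all groups except control. No genetic change is named for these mice, and the labels give neither age nor strain. The 14 arrays lay on 2 slides, each scanned on its own date and holding arrays of all 4 groups, with 8 arrays on slide 1 and 6 on slide 2. From 181 to 287 mouse miRNAs were detected per array, and the summed signal ran from 45664 on replicate 2 of 2dr to 173924 on replicate 4 of control.

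Both clusters are transcribed as long precursors from which several miRNAs are cut. miR-17-92, also known as oncomiR-1, is switched on by MYC and E2F transcription factors and is known for driving proliferation and survival, in part by repressing Bim and the cell cycle inhibitor p21. miR-106b-25 lies in an intron of Mcm7, a gene of the DNA replication helicase, and is co-transcribed with it. In the oligodendrocyte lineage miR-17-92 is known for promoting the expansion of precursor cells, and remyelination depends on such precursors.

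The mature sequences are shown because the 9 members fall into 4 seed families that cut across both clusters, so that a target of one member is often a target of members elsewhere. The sequences are those of RefSeq on GRCm38.p6, where all 9 members were matched, written 5′ to 3′ with the seed, bases 2 to 8, in capitals. miR-17, miR-20a, miR-106b and miR-93 share the first seed, miR-18a has one of its own, miR-19a and miR-19b share the third, and miR-92a and miR-25 share the last.
miR-17: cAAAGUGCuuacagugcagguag
miR-20a: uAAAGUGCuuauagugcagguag
miR-106b: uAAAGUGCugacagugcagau
miR-93: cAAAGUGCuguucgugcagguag
miR-18a: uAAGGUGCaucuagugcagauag
miR-19a: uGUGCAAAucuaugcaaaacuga
miR-19b: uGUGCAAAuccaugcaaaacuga
miR-92a: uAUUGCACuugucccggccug
miR-25: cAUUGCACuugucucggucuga

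Some of these sequences differ by little. miR-19a and miR-19b differ at 1 of 23 positions, miR-17 and miR-20a at 2 of 23, and miR-92a and miR-25 at 3 of the 21 positions compared. Whether the array's probes tell such close relatives apart was not tested.

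On GRCm38.p6 the 6 hairpins of miR-17-92 lay within 836 bases of the plus strand, at chr14:115043671-115044506. The 3 hairpins of miR-106b-25 lay within 498 bases of the minus strand, at chr5:138165321-138165818, inside the span of Mcm7 (chr5:138164583-138172111). Mature miR-19b and mature miR-92a each come from 2 loci with identical mature sequence, one in miR-17-92 and one in the paralogous miR-106a-363 cluster on chromosome X. The signal of miR-19b and miR-92a was therefore the sum of both loci.

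The members divided into 6 that were measured throughout and 3 that were not. The image software called miR-19b, miR-20a, miR-92a, miR-106b, miR-93 and miR-25 detected on 14 of 14 arrays, and these 6 were tested. All 3 members of miR-106b-25 were among them, against 3 of the 6 members of miR-17-92.

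miR-17, miR-18a and miR-19a stayed at the limit of detection and were not tested. miR-17 was called detected on 2 of 14 arrays, replicate 4 of control and replicate 2 of 2wr, both on slide 2. Its background-subtracted total signal, on the linear scale and before scaling, was between -6.87 and 0.470 on the 8 arrays of slide 1 and between 2.68 and 16.1 on the 6 arrays of slide 2. The ranges of the slides did not overlap, although each slide held arrays of all 4 groups. miR-18a was called detected on 1 array, replicate 2 of 2wr, with total signals from -1.23 to 7.02 over all arrays. miR-19a was called detected on 1 array, replicate 4 of control, where its total signal was 11.1. No difference between groups is given for these 3 members, since nearly all of their values only bound the level from above.

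The values of the 6 tested members that follow are log2 scaled signals, that is, the total signal of a miRNA divided by its array's 75th percentile, which was computed from the 170 miRNAs that all 14 arrays detected. A probe's signal depends on its sequence, so values of different miRNAs were not ranked against each other. Groups were compared with limma in 1 fit of all arrays, with p-values adjusted by the Benjamini-Hochberg method over all 225 miRNAs tested. A miRNA was called where the adjusted p was under 0.05 and the difference at least 2-fold, which is 1 on the log2 scale.

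None of the 6 tested members was called in any of the 6 comparisons between groups. Calls were rare on these arrays, at 0.444% of the 225 miRNAs for 4wd against control, 0.889% for 2dr against control and 0% for 2wr against control. They were 0% for 2dr against 4wd, 0% for 2wr against 4wd and 0% for 2wr against 2dr. In the limma test across the 4 groups 0.444% of all miRNAs passed and none of the members did, with adjusted p-values from 0.522 for miR-20a and miR-92a to 0.700 for miR-19b. Simulated 2-fold changes at this spread were called in 34.5% of cases for 2dr against control and 4-fold changes in 86.2%. A change of exactly 2-fold lies at the minimum fold of a call, so that rule limits its recovery as well as the spread does. The simulation also changed more miRNAs at once than were called in these data. A true 2-fold difference would thus often not be called, and how well these arrays detect one was not measured apart from that rule. At an unadjusted p under 0.05 in either direction, 0 of 6 members passed in 4wd against control, where 10.2% of all miRNAs did, 2 in 2dr against control, where 12% did, and 1 in 2dr against 4wd, where 18.2% did. None passed in 2wr against control, 4wd or 2dr, where 0.889%, 4.89% and 0.889% of all miRNAs did.

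**Figure D1:**
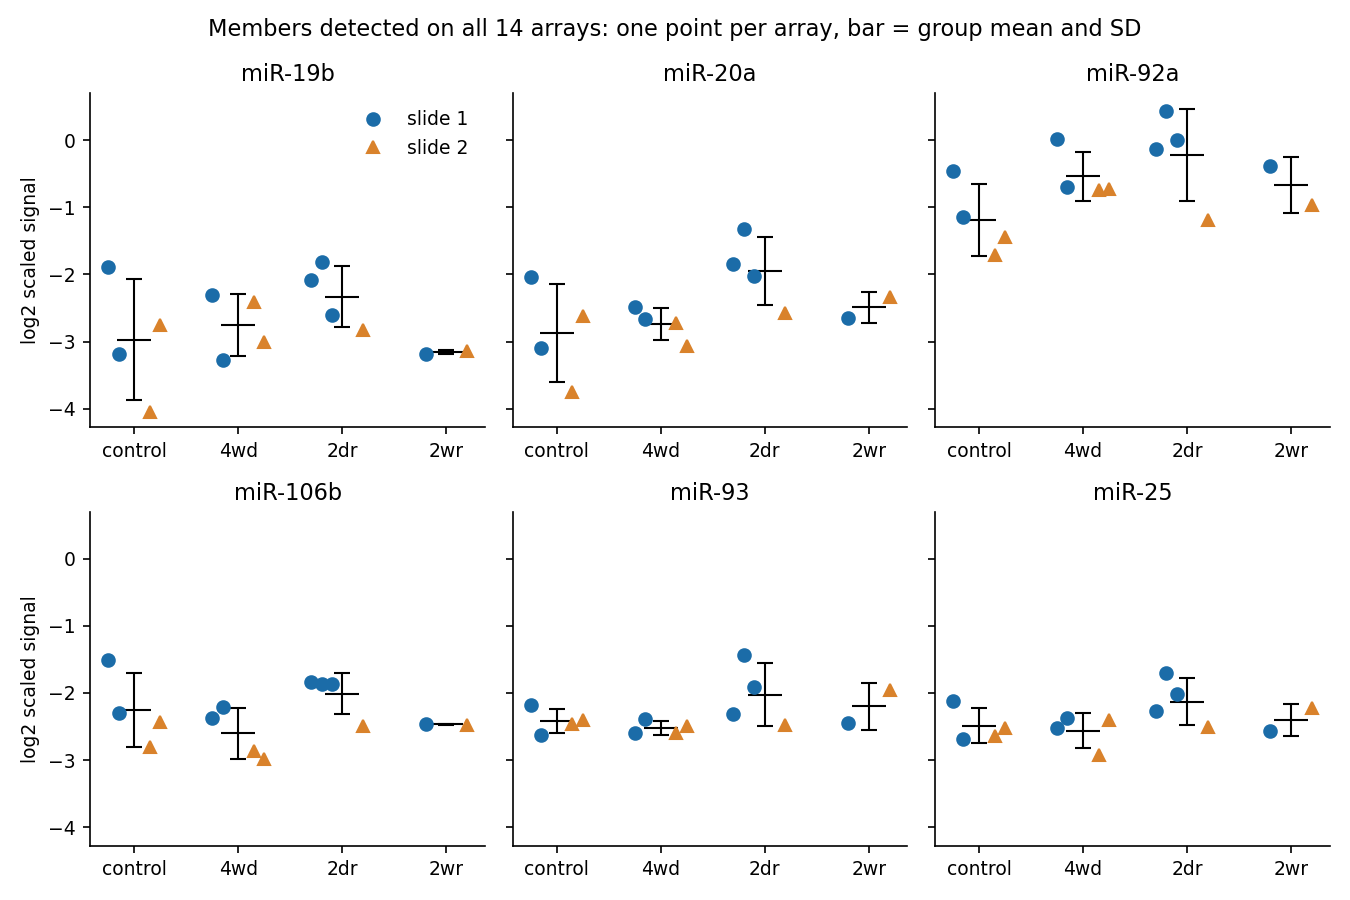
Log2 scaled signal (vertical axis) of the 6 tested members in each group (horizontal axis), 1 point per array, with circles for slide 1 and triangles for slide 2; the bars give the group mean and SD. The 2dr mean is the highest of the 4 groups in every panel, and the points of 2dr and control overlap in all 6.

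Of the tested members with the miR-17 seed, miR-20a had the largest difference from control at 2dr. Its log2 scaled signals on the control arrays were -2.04, -3.09, -3.75 and -2.62, and on the 4wd arrays -2.48, -2.66, -2.73 and -3.06. On the 2dr arrays they were -1.85, -1.33, -2.58 and -2.03, and on the 2wr arrays -2.65 and -2.33. The control arrays were widely spread, 3 of the 4 arrays of 2dr lay above every control array, and replicate 3 of 2dr, on slide 2, lay among them.
The mean was -2.87 ± 0.73 for control (SD, n = 4) and -2.74 ± 0.24 for 4wd (SD, n = 4). It was -1.95 ± 0.51 for 2dr (SD, n = 4) and -2.49 ± 0.23 for 2wr (SD, n = 2). The difference of 2dr against control was 0.93 on the log2 scale, a 1.90-fold higher level (limma, SE 0.35, unadjusted p = 0.0201, adjusted p = 0.368). It was the 7th highest difference of the 225. The difference of 2dr against 4wd was 0.79 (limma, SE 0.35, unadjusted p = 0.0422, adjusted p = 0.249), and again 3 of 4 arrays of 2dr lay above all of 4wd. An exact two-sided permutation test gave p = 0.0571 for each of these differences, where 0.0286 is the smallest p that 4 against 4 arrays allow. Against control, 4wd differed by 0.14 and 2wr by 0.39, both within the spread of the control arrays.

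miR-106b, which has the same seed but belongs to the cluster in Mcm7, was lowest at 4wd. Its log2 scaled signals were -1.51, -2.30, -2.81 and -2.43 on the control arrays, -2.37, -2.21, -2.86 and -2.99 on the 4wd arrays, -1.84, -1.87, -2.49 and -1.86 on the 2dr arrays and -2.46 and -2.48 on the 2wr arrays. No 2dr array exceeded the highest control array, and 3 of the 4 arrays of 2dr lay above every 4wd array. The difference was -0.34 for 4wd against control (limma, SE 0.29, adjusted p = 0.765), 0.25 for 2dr against control (limma, SE 0.29, adjusted p = 0.634) and 0.59 for 2dr against 4wd (limma, SE 0.29, adjusted p = 0.305). The size of the first was within the control SD of 0.55.

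miR-93, the third measured member of this seed family, had the narrowest control group. Its values were -2.18, -2.62, -2.46 and -2.41 in control and -2.59, -2.39, -2.60 and -2.50 in 4wd. They were -2.31, -1.43, -2.48 and -1.91 in 2dr and -2.45 and -1.96 in 2wr, all as log2 scaled signal. Only replicates 2 and 4 of 2dr exceeded every control array, and the SD of 2dr, 0.47, was larger than that of control, 0.18. The difference was -0.10 for 4wd against control, 0.39 for 2dr against control (limma, SE 0.23, adjusted p = 0.449) and 0.49 for 2dr against 4wd (limma, SE 0.23, adjusted p = 0.302).

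miR-19b, the measured member of its seed family, varied most among controls. Its log2 scaled signals were -1.89, -3.18, -4.05 and -2.76 on the control arrays and -2.31, -3.27, -2.41 and -3.00 on those of 4wd. They were -2.08, -1.82, -2.83 and -2.60 on the arrays of 2dr and -3.19 and -3.14 on those of 2wr. The control arrays alone spanned the values of 4wd and 2wr, and the control SD was 0.90. The difference was 0.22 for 4wd against control, 0.64 for 2dr against control (limma, SE 0.41, adjusted p = 0.449) and -0.19 for 2wr against control. Both 2wr arrays lay below all 4 arrays of 2dr, with a difference of -0.83 (limma, SE 0.50, unadjusted p = 0.120) and an exact two-sided permutation p of 0.133, where 0.0667 is the smallest possible for 2 against 4. Of all 225 miRNAs 3.11% had every 2wr array below every 2dr array.

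miR-92a was the member with the largest differences from control, at both 4wd and 2dr, although at 2dr miR-20a was close, at 0.93 against 0.97. With group and slide in the same limma fit the order at 2dr turned, at 0.82 for miR-20a and 0.78 for miR-92a. The log2 scaled signals of miR-92a were -0.46, -1.14, -1.71 and -1.44 on the control arrays and 0.02, -0.70, -0.74 and -0.72 on the 4wd arrays. They were -0.13, 0.44, -1.19 and 0.01 on the 2dr arrays and -0.38 and -0.97 on the 2wr arrays. Apart from replicate 1, the control arrays lay below every 4wd array, and 3 of the 4 arrays of 2dr lay above all controls.
The mean was -1.19 ± 0.54 for control (SD, n = 4) and -0.54 ± 0.37 for 4wd (SD, n = 4). It was -0.22 ± 0.69 for 2dr (SD, n = 4) and -0.67 ± 0.42 for 2wr (SD, n = 2). The difference was 0.65 for 4wd against control (limma, SE 0.37, unadjusted p = 0.0973, adjusted p = 0.553), the 12th highest of 225. It was 0.97 for 2dr against control, a 1.96-fold higher level (limma, SE 0.37, unadjusted p = 0.0201, adjusted p = 0.368) and the 6th highest of 225. The exact two-sided permutation p was 0.114 for the first difference and 0.0857 for the second. At 2wr it was 0.52 (limma, SE 0.45, adjusted p = 0.996).

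miR-25, which shares the seed of miR-92a, moved less. Its log2 scaled signals were -2.12, -2.68, -2.64 and -2.53 in control and -2.52, -2.37, -2.93 and -2.41 in 4wd. They were -2.27, -1.71, -2.51 and -2.02 in 2dr and -2.57 and -2.23 in 2wr. Replicates 2 and 4 of 2dr lay above every control array, as they did for miR-93. The difference was -0.07 for 4wd against control, 0.36 for 2dr against control (limma, SE 0.23, adjusted p = 0.449) and 0.43 for 2dr against 4wd (limma, SE 0.23, adjusted p = 0.346). The seed was shared but the gap at 4wd was not, at 0.65 for miR-92a and -0.07 for miR-25, and the difference between these was not tested.

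The order of the group means was alike in one respect only, that 2dr came highest for all 6 tested members. The lowest group was control for miR-20a and miR-92a, 4wd for miR-106b, miR-93 and miR-25, and 2wr for miR-19b. Of the 18 steps between neighbouring groups in these orders, 2 exceeded the larger SD of their pair of groups. Both were steps of miR-20a, of 0.25 from 4wd to 2wr against an SD of 0.24, and of 0.54 from 2wr to 2dr against an SD of 0.51.

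The members' differences at 2dr, none of them called, were set beside those of the whole array. All 6 tested members had a difference above 0 in 2dr against control, although without any scaling of the arrays miR-106b (-0.15), miR-93 (-0.02) and miR-25 (-0.04) did not. Of the 225 miRNAs 28.4% had a difference above 0. All 6 members were above the median of all miRNAs, as 49.8% are by construction. Their median difference was 0.51 and that of all miRNAs -0.25, and relative to the latter the members lay between 0.50 for miR-106b and 1.23 for miR-92a. The unadjusted p was under 0.05 with a higher level in 2 of the 6 members, miR-20a and miR-92a, and in 4% of all miRNAs. The comparison with 4wd rests on the same 2dr arrays. The median difference was 0.46 in the members and -0.30 in all miRNAs, with all 6 members above 0 against 32% of all miRNAs and all 6 above the median against 49.8%. The unadjusted p was under 0.05 in 1 member, miR-20a, and in 2.67% of all miRNAs. Within slide 2, with 1 array of 2dr and 2 of 4wd, the difference turned to -0.46 for miR-92a and -0.12 for miR-19b, and the members' median was 0.11. Members of a cluster share a precursor, so these counts are not 6 separate measurements.

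At the other time points the members lay closer to the rest of the array. The median difference was 0.04 for 4wd against control, with 3 of 6 members above 0, and 0.03 over all miRNAs. It was 0.15 for 2wr against control, with 4 of 6 members above 0, and -0.08 over all miRNAs. From 2dr to 2wr all 6 members had a difference below 0, from -0.83 for miR-19b to -0.17 for miR-93, as had 36.4% of all miRNAs. The median was -0.46 in the members and 0.12 over all miRNAs. This last comparison has 2 arrays of 2wr, 1 on each slide, and on slide 2, with 1 array in each group, it turned to 0.25 for miR-20a, 0.22 for miR-92a, 0.52 for miR-93 and 0.28 for miR-25. There miR-106b was at 0.00 and miR-19b at -0.31.

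**Figure D2:**
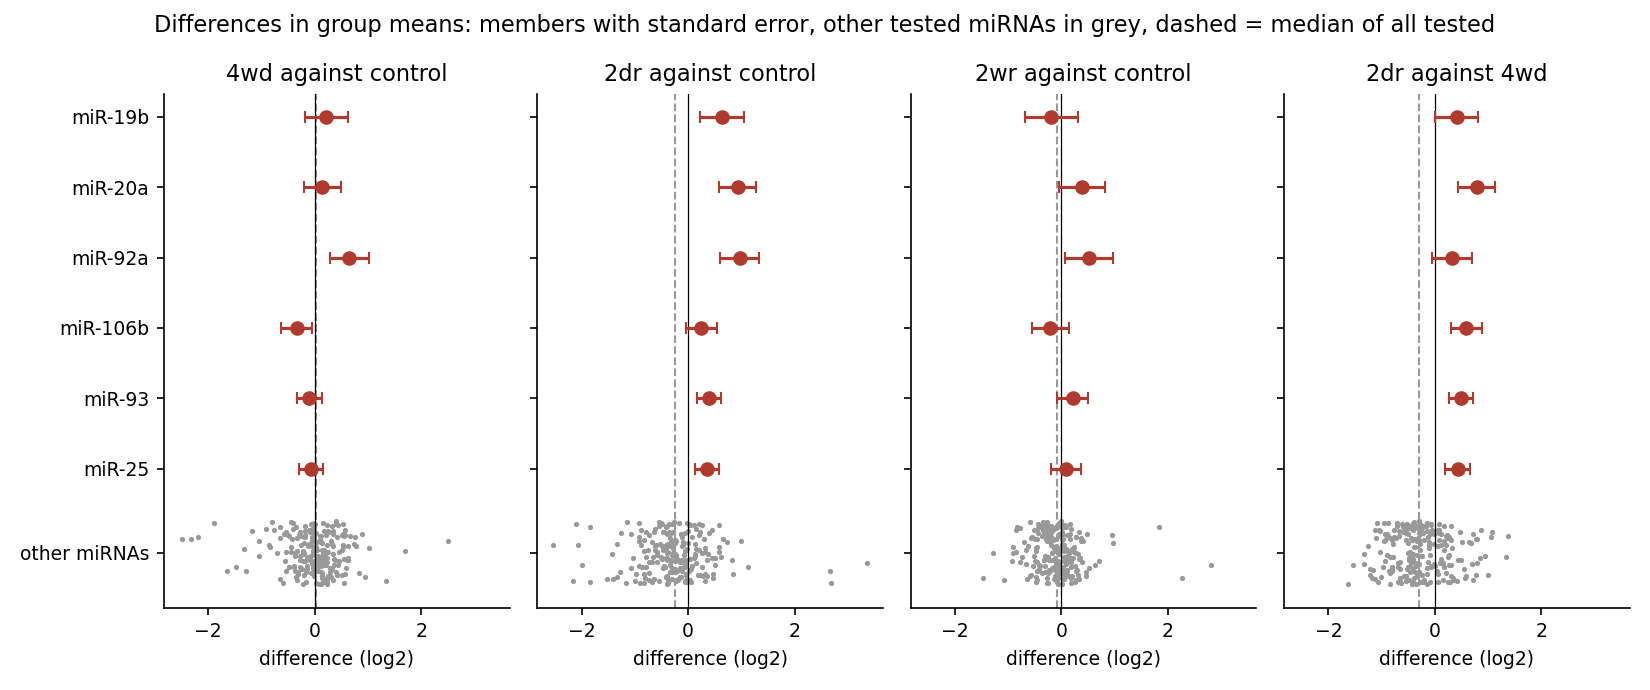
Difference in group means on the log2 scale (horizontal axis) for 4 comparisons, with the 6 tested members as red points with their limma standard error and the other tested miRNAs as grey points spread vertically for legibility; the dashed line is the median of all 225. In 2dr against control the members lie between 0.25 and 0.97 while the median of all lies at -0.25.

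The levels of some members differed between slides by as much as between groups. With group and slide in the same limma fit, the level on slide 2 minus that on slide 1 was -0.75 for miR-92a (SE 0.19, adjusted p = 0.0135) and -0.56 for miR-106b (SE 0.15, adjusted p = 0.0177). These 2 members were lower on slide 2 at an adjusted p under 0.05, as were 12.4% of all miRNAs. For the other 4 the slide term lay between -0.43 for miR-20a and -0.09 for miR-93. Control and 4wd had 2 arrays on each slide, while 2dr had 3 on slide 1 and 1 on slide 2.

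The differences at 2dr were therefore also taken within each slide. For miR-20a they were 0.83 on slide 1 and 0.61 on slide 2, and for miR-92a 0.91 and 0.38. For both members the 2dr arrays of a slide all exceeded the controls of that slide. For miR-20a on slide 1 the margin was narrow, at -2.03 for the lowest 2dr array against -2.04 for the highest control array. The share of all miRNAs with such a separation within a slide was not computed, and each slide holds few of these arrays. No conclusion is therefore drawn from that separation. Over both slides together, 0 members had every 2dr array above every control array, against 4 of all 225 miRNAs. For miR-106b the within-slide differences were 0.05 and 0.13, and for miR-19b 0.37 and 0.58. For miR-93 they were 0.52 and -0.04, and for miR-25 0.40 and 0.07, so the 2dr arrays with the highest miR-93 and miR-25 were all on slide 1. Slide 2 gives these values from 1 array of 2dr against 2 of control.
With slide as a block, the difference of miR-92a was 0.78 at 2dr (limma, unadjusted p = 0.00841, adjusted p = 0.236) and 0.65 at 4wd (limma, unadjusted p = 0.0200, adjusted p = 0.225). That of miR-20a at 2dr was 0.82 (limma, unadjusted p = 0.0257, adjusted p = 0.316). None of the members was called in that fit.

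Single arrays also carried weight. Leaving out 1 array at a time, the difference of 2dr against control ran from 0.64 without replicate 3 of control to 1.21 without replicate 1 of control for miR-20a. For miR-92a it ran from 0.75 without replicate 2 of 2dr to 1.30 without replicate 3 of 2dr. The difference stayed above 0 for all 6 members in each of these 14 fits, with a lowest value of 0.07 for miR-106b without replicate 3 of control, and no member was called. Replicate 2 of 2dr gave the highest value of its group in 5 of the 6 members, and it was also the array with the lowest summed signal and the fewest miRNAs detected. Its part in the result was not tested beyond leaving it out.

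**Figure D3:**
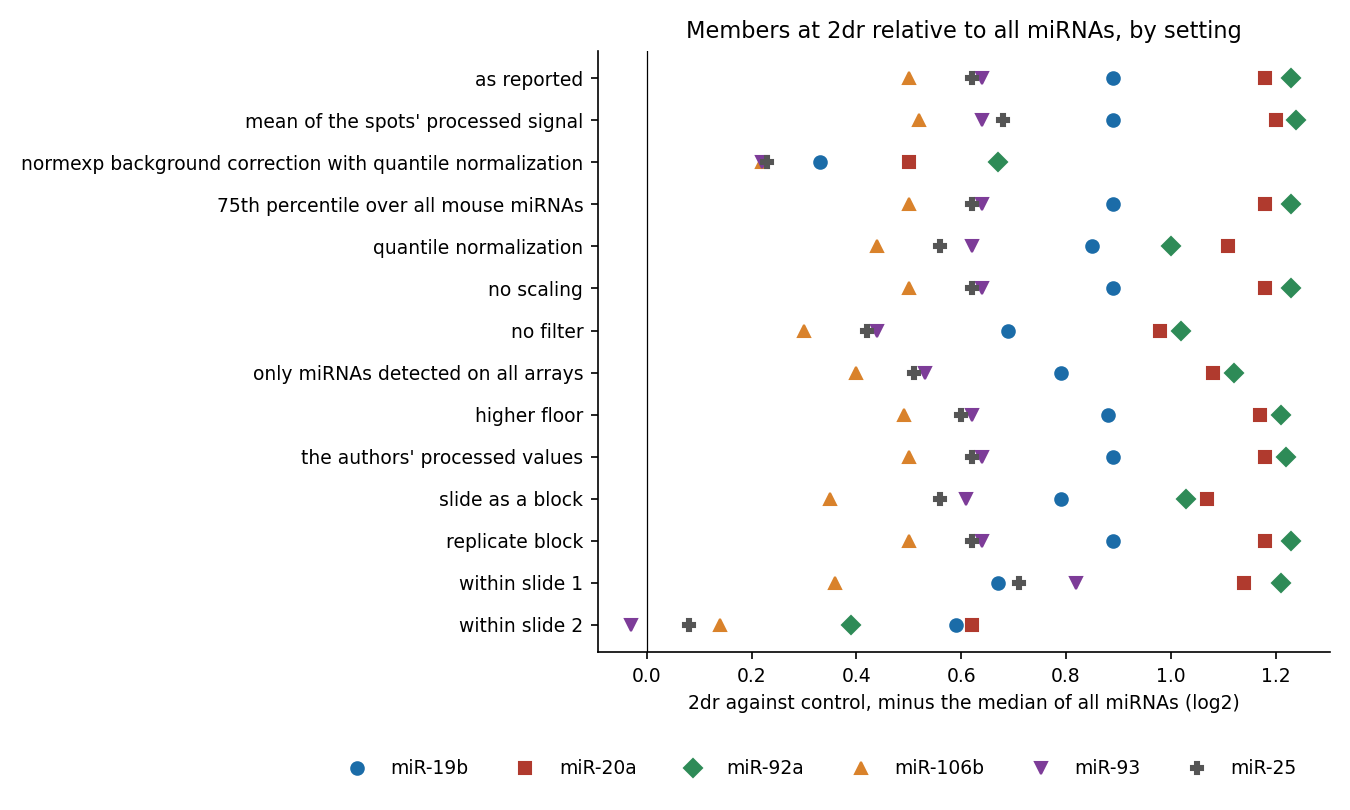
Difference of 2dr against control minus the median difference of all miRNAs tested, on the log2 scale (horizontal axis), for each of the 6 tested members (symbols) under each way of processing the arrays and within each slide (rows). All points lie above 0 except miR-93 within slide 2, and miR-20a and miR-92a are the highest pair in every row on all arrays.

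Each member was read by 2 probes, and how these related to each other depended on the slide. The signal of the dimmer probe as a share of the brighter had a median of 8.04% on slide 1 and 31.4% on slide 2 for miR-93, and of 17.4% and 53.3% for miR-25. For miR-92a the medians were 29.3% and 44.3%, and for miR-19b the share was 26.4 to 37.6% on slide 1 and 46.6 to 54.3% on slide 2. In these 4 members no array of slide 1 reached the lowest of slide 2, and the exact two-sided permutation p was 0.000333, the smallest that 8 against 6 arrays allow. The probe ratio was computed for the members only, so whether other miRNAs of the array differ between slides in the same way was not tested. For miR-106b the medians were 41.5% and 48.6% (exact permutation p = 0.00333) and for miR-20a 41.3% and 45.6% (exact permutation p = 0.0529), with overlap between slides in both.
The probes agreed on 2dr against control for miR-20a, at 0.93 for the brighter and 0.91 for the dimmer, and gave 1.04 and 0.76 for miR-92a. They did not for miR-93, at 0.47 and -0.24, or for miR-25, at 0.49 and -0.10. The dimmer probe of miR-93 was mostly well above background on 9 of 14 arrays and that of miR-25 on 13, and slides were not balanced between these groups. The values of miR-93 and miR-25 at 2dr therefore rest on their brighter probes.

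**Figure D4:**
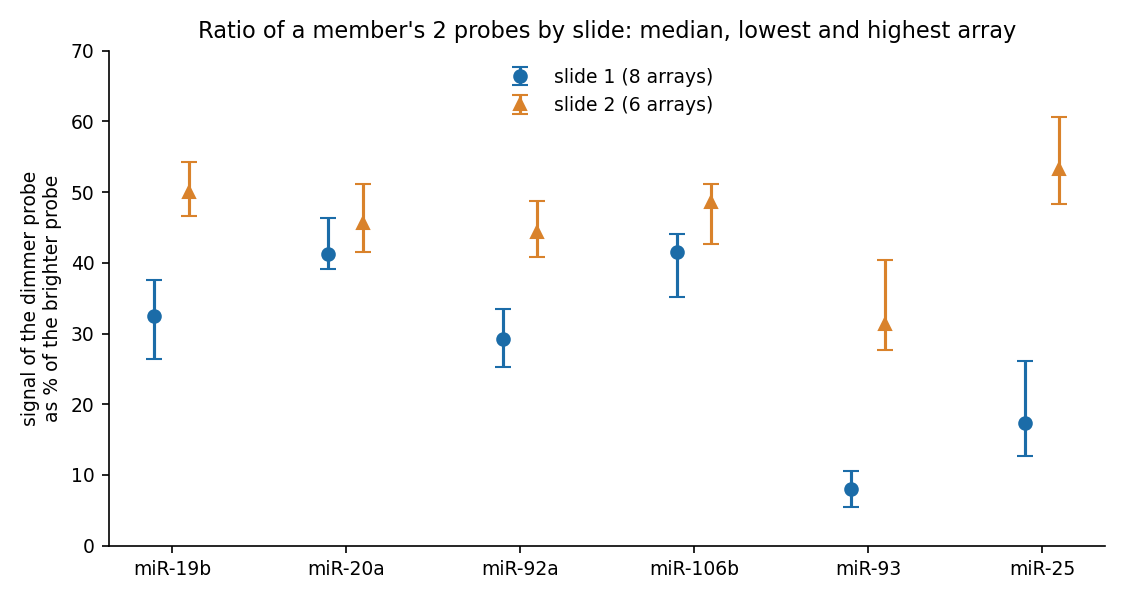
Signal of the dimmer probe as a percentage of the brighter probe (vertical axis) for each tested member (horizontal axis), as the median with the lowest and highest array, for the 8 arrays of slide 1 (circles) and the 6 of slide 2 (triangles). The slides lie apart for miR-19b, miR-92a, miR-93 and miR-25, with the widest gap of medians, 17.4% against 53.3%, for miR-25.

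The distance between profiles differed from one pair of genomic neighbours to another. Each log2 profile over the 14 arrays had its own mean taken off, and the mean absolute difference between pairs of profiles was computed for the 170 miRNAs with a signal called on each array. miR-93 and miR-25, whose hairpins are next to each other in Mcm7, were each other's nearest of 169 miRNAs, at 0.11, where the median distance to the others was 0.45 for miR-93 and 0.43 for miR-25. With the mean of each slide taken off in place of the overall mean, they remained each other's nearest at 0.11. The third member of that cluster, miR-106b, was nearest to miR-15a (0.18), and miR-25 was its 6th nearest (0.22). With slide means taken off, miR-15a remained nearest to miR-106b (0.16), and miR-25 was 4th nearest (0.19).
In miR-17-92, miR-20a was nearest to miR-21 (0.19), miR-92a to miR-15b (0.25) and miR-19b to miR-101a (0.26) with miR-20a next (0.27). With slide means taken off, miR-20a was nearest to miR-20b (0.08), its counterpart in the paralogous cluster on chromosome X. Whether the array's probes tell miR-20a from miR-20b was not tested. All these distances are descriptions over arrays that share slide and depth. Profiles were not scaled to a common spread, so those that vary little tend to lie closer to all others. The median distance was 0.57 or 0.58 for the tested members of miR-17-92 and 0.43 to 0.46 for those of miR-106b-25. Distances of different pairs are therefore not directly comparable.

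miR-20b was the only one of the 4 leading-strand miRNAs listed for the paralogous miR-106a-363 cluster that was tested, with miR-106a detected on 2 arrays and miR-18b and miR-363 on none. Its mature sequence has the seed of miR-20a and differs from it at 2 of 23 positions.
miR-20b: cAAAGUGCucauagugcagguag
The log2 scaled signal of miR-20b averaged -3.91 over control arrays, -3.90 over 4wd arrays, -3.18 over 2dr arrays and -3.63 over 2wr arrays. The difference of 2dr against control was 0.73 (limma, SE 0.31, adjusted p = 0.368) and that of 2dr against 4wd 0.73 (limma, SE 0.31, adjusted p = 0.233). It had the order of groups of miR-20a, with 2dr highest, although 4wd and control differed by 0.00 (limma, SE 0.31). It was not called in any comparison. Whether the array's probes tell miR-20b from miR-20a was not tested, so their likeness may be that of a shared signal. Of the miRNAs of other loci, miR-92b, miR-32 and miR-367 carry bases 2 to 8 of miR-92a and miR-25. miR-92b was detected on 9 of 14 arrays, among them all 4 of control and 2 of 4 of 2dr, and miR-32 and miR-367 on none. The miR-302 and miR-290 families of pluripotent cells, also listed, do not carry a member's bases 2 to 8 in their RefSeq entries, and the 7 miRNAs listed from them were detected on no array.

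The passenger strands of the same hairpins were near or below the limit of detection. Of 9 listed, 7 were on the array and none was tested. miR-17*, from the hairpin whose leading strand was detected on 2 arrays, was detected on 5 arrays, 2 of control, 2 of 2dr and 1 of 2wr. miR-106b* was detected on 1 array and the other 5 on none.

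miRNAs known for restraining the cell cycle, chosen as the functional counterpart of the clusters, were also followed. All 10 were detected on every array, and none was called in any comparison. Their median difference was 0.25 at 2dr against control, with 9 of 10 above 0, between that of the members (0.51) and that of all miRNAs (-0.25). The highest was miR-34a, a target of p53, at 1.13 (limma, SE 0.32, adjusted p = 0.201). miR-15b, the miRNA nearest in profile to miR-92a, differed by 0.82 (limma, SE 0.41, adjusted p = 0.422), and let-7a by 0.31 (limma, SE 0.25, adjusted p = 0.521).

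Marker miRNAs of the cells in the tissue were read beside these results, since in a tissue punch fewer cells of a type and less RNA per cell cannot be told apart. The oligodendrocyte markers miR-219, miR-338-3p and miR-138 were detected on every array with a median difference of -0.83 at 4wd and -0.62 at 2dr and none of the 3 called. Their summed scaled signal ran from 2.77 to 11.2 over control arrays, from 1.98 to 3.53 over 4wd arrays, from 2.20 to 6.99 over 2dr arrays and from 3.72 to 3.96 over 2wr arrays. At 4wd miR-338-3p differed by -1.17 (limma, SE 0.49, adjusted p = 0.402), miR-219 by -0.83 and miR-138 by 0.31.
Of the myeloid and leukocyte markers, miR-155, which activated microglia and macrophages make, was detected on 0 of the 4 control arrays, on 1 of 4 for 4wd, on 4 of 4 for 2dr and on 1 of 2 for 2wr. miR-142-3p was detected on 2 of the 4 control arrays, on all arrays of 4wd and 2dr and on 1 of 2 for 2wr. In contrast, miR-223 was detected on all 4 control arrays and on 0 of 4 for 4wd. It was detected on 3 of 4 for 2dr and on 1 of 2 for 2wr. Neither difference nor test is given for these markers, since each was below detection on some or all arrays of control or 4wd. In addition, miR-155 entered the fit only through 2dr, and miR-223 only through control. miR-150, detected on every array, differed by -1.16 at 2dr (limma, SE 0.79, adjusted p = 0.454). The summed scaled signal of the 5 ran from 0.0981 to 0.313 over control arrays, 0.119 to 0.405 over 4wd arrays, 0.134 to 0.467 over 2dr arrays and 0.113 to 0.461 over 2wr arrays, with miR-142-5p detected on 1 array.
Neuronal markers were all detected, with a median difference of -0.32 at 2dr and a summed scaled signal from 23.8 to 29.1 in control and 16.6 to 26.6 in 2dr. For red blood cells, miR-451 differed by 0.06 at 2dr, and miR-144 was detected on no array. miR-486 was detected on all 4 control arrays, on 2 of 4 for 4wd, on 2 of 4 for 2dr and on 1 of 2 for 2wr. It entered the fit only through control, so no difference is given for it. The summed scaled signal of the red blood cell markers ran from 0.465 to 0.986 in control and 0.463 to 0.770 in 2dr. For vessels, miR-126-3p differed by 0.03 at 2dr, and the summed signal ran from 0.647 to 1.19 in control and 0.682 to 1.05 in 2dr. The part of any of these cell types in the levels of the members was not tested.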

How the data were processed

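Corpus callosum miRNA was measured on 14 single-colour arrays. The authors' image software (Agilent Feature Extraction, 10.5.1.1 per the file headers, a later version in the methods) subtracted background and summed each miRNA's spots, and the deposited values are signal intensity on a linear scale, with no normalization between arrays. A table deposited by the authors gives processed log2 values for these arrays and served as an alternative.

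Each total signal was divided by its array's 75th percentile, computed from the 170 miRNAs that every array detected. Low values were raised to a floor of 0.00176 (log2 -9.15) before log2 was taken. Control spots and 10 viral miRNAs were left out. The fit covered the 225 of 566 miRNAs for which 1 or more groups had a detected signal on all of their arrays. The 4 groups were fitted with limma 3.58.1 (R 4.3.3) and Benjamini-Hochberg adjustment. A call needed an adjusted p under 0.05 and 2-fold. Exact permutation tests went through every split of the arrays between the groups compared. The methods' test, an analysis of variance with Tukey's test, used scipy 1.17.1. The fit was tested on simulated data. Members were named by the rule given, with lists by their counts, and the members and lists were chosen with earlier results of these data known. Groups came from the labels, which do not state that arrays are separate mice beyond calling them replicates, so p-values measure the spread between these arrays, and their number limits the precision. No pair of arrays was closer than a median difference of 0.20 (log2, 91 pairs). The array's design follows mm9, so coordinates are those of RefSeq on GRCm38.p6. Replicate numbers are shared between groups. Of 18 same-numbered pairs of arrays, 13 showed a correlation over 0.1 once group means were removed (lowest -0.61, highest 0.74). In 13 of the 18 pairs both arrays lay on the same slide, so a shared number largely went with a shared slide. The labels state no pairing, so the main fit did not pair arrays, and the replicate block was run as an alternative. Alternatives were the spots' mean signal, normexp with quantile normalization (on the spots' median signal, with an offset of 50), other scalings, filters and floor, slide or replicate as a block, single slides, the authors' values, the methods' test, dropping the minimum fold, and leave-one-out fits.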

Additional observations from a re-analysis of the deposited data

Results flagged for a closer look

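Of 18 groups of 4 arrays examined, 6 members in 3 groups, 2 held an array set apart from the other 3 by a gap larger than Dixon's 95% limit, and chance sets apart about 1 group in 20. For miR-92a in 4wd, replicate 1 had a log2 scaled signal of 0.02, which was 0.72 above the next array in a range of 0.76. Without it the difference of miR-92a for 4wd against control was 0.47 in place of 0.65. For miR-106b in 2dr, replicate 3 had -2.49, which was 0.62 below the next array in a range of 0.65. It is the only 2dr array on slide 2, where miR-106b was lower in general.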

How the results depend on the processing

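No member was called under any alternative run, which included the values processed by the authors, the methods' test, dropping the minimum fold and leave-one-out fits. Arrays being few, this says little about differences near 2-fold. Without scaling the median of all miRNAs moved from 0.03 to -0.93 at 4wd and from -0.25 to -0.66 at 2dr against control, and the percentile over all mouse miRNAs put the latter at 0.03. The members' median difference without scaling was -0.94 for 4wd, 0.11 for 2dr and -0.27 for 2wr against control, 1.03 for 2dr against 4wd and 0.70 for 2wr against 4wd. For 2dr against 4wd it was 0.78 with the percentile over all mouse miRNAs, 0.80 with the authors' values and 0.11 within slide 2, where 2wr against 2dr was 0.24. Relative to the median of all miRNAs the members' median at 2dr against control lay between 0.28 and 0.78 over 12 settings that used all arrays. Normexp gave the lowest of these. Within slide 2 it was 0.27, and in the leave-one-out fits it ran from 0.51 to 0.96.

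Signs turned without scaling for 4wd against control in miR-19b (-0.75), miR-20a (-0.83) and miR-92a (-0.32), for 2dr against control in miR-106b (-0.15), miR-93 (-0.02) and miR-25 (-0.04), for 2wr against control in miR-20a (-0.03), miR-93 (-0.21) and miR-25 (-0.33), and for 2wr against 4wd in miR-19b (0.14) and miR-92a (0.42). miR-92a in 2wr against 4wd was 0.08 with the percentile over all mouse miRNAs and 0.08 with the authors' values. With the replicate block, miR-25 in 2wr against control was -0.03, and miR-20a and miR-106b in 2wr against 4wd were -0.03 and -0.15. The replicate block changed no member's call.

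In the leave-one-out fits the members' median ran from -0.13 to 0.24 for 4wd, from 0.34 to 0.75 for 2dr and from -0.06 to 0.25 for 2wr against control, from 0.29 to 0.64 for 2dr against 4wd, 0.04 to 0.24 for 2wr against 4wd and -0.69 to -0.29 for 2wr against 2dr. Signs turned for miR-19b (-0.14 to 0.58), miR-20a (-0.15 to 0.42) and miR-25 (-0.13 to 0.06) at 4wd, and for miR-19b (-0.55 to 0.17), miR-106b (-0.39 to 0.04), miR-93 (-0.03 to 0.46) and miR-25 (-0.08 to 0.26) at 2wr against control. They also turned for miR-92a (-0.43 to 0.16) and miR-25 (-0.02 to 0.32) in 2wr against 4wd and for miR-93 (-0.42 to 0.07) in 2wr against 2dr. No sign turned for 2dr against control or 4wd.

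All-miRNA counts of calls at 4wd and 2dr against control, 1 and 2, fell to 0 and 0 with normexp, no scaling and the methods' test, and to 0 and 1 with no filter, with only miRNAs detected on all arrays and with the higher floor of 0.0129. For 4wd the count was also 0 with the spots' mean and with quantile normalization. For 2wr it rose from 0 to 1 with the percentile over all miRNAs, the authors' values and slide as a block. In the test across the 4 groups it fell from 1 to 0 with normexp, the methods' test, no scaling, both other filters and the higher floor, and was 2 with the replicate block. Leaving out arrays gave 1 to 2 calls at 2dr and 0 to 1 at 4wd, at 2wr and across the 4 groups. The causes of these changes were not tested. On replicate 1 of 4wd the authors' values followed the scanner files for fewer miRNAs than on other arrays. The 2wr arrays are replicates 1 and 2 by title and other numbers by source name, and the titles were used.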
